A study of Mus musculus with 10 samples.

Results

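The genes described here are 10 digestive enzymes of the exocrine pancreas, measured in mouse spleen: Ctrb1, Prss2, Try4, Try5, Cpa1, Cpb1, Pnlip, Cel, Cela2a and Cela3b. They were taken by name from a table of 54532 genes, and all 10 were in it once. They were selected on their FPKM in these same libraries, which had been seen to be high in single spleens. The aim was to describe tissue that may have come along with those spleens. Their levels, and every count or fold change computed from them, are therefore a description and test nothing about the enzymes.

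RNA-seq was done on whole spleens of adult male mice, 5 DUSP6 KO (the Dusp6tm1Jmol deletion, carried in all cells, which the labels call DUSP6 Knockdown) and 5 WT (C57BL/6J). All 10 mice had KRN serum-induced arthritis (KSIA), brought on by 100 µL of arthritogenic serum given intraperitoneally at the start and again shortly after, and all spleens were taken on day 9. There was 1 library per mouse, so the spread between libraries includes the spread between mice, and no library came from a mouse without serum. Values are FPKM, that is fragment counts scaled to the length of the gene and to all fragments counted in the library, and the underlying reads came back as whole numbers. The DUSP6 KO libraries held 14990474 to 19822673 reads and the WT libraries 15611652 to 18422147. Dusp6, the deleted gene, was at 0.308 to 0.624 FPKM in the DUSP6 KO libraries and at 16.6 to 24.0 FPKM in the WT libraries. Libraries are named below by genotype and by the mouse number in the labels.

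The exocrine pancreas is made of acinar cells, which synthesise digestive enzymes in very large amounts and store them in zymogen granules until a meal triggers their release into the ducts. Proteases such as trypsinogen, chymotrypsinogen and the procarboxypeptidases are made as inactive precursors, whereas the lipases are released in active form. Transcription of these genes in acinar cells depends on the PTF1 complex, which contains Ptf1a and Rbpjl and binds a site made of an E-box and a TC-box. In the mouse the tail of the pancreas lies against the spleen within the same fold of mesentery.

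2 WT libraries stood apart from the other 8. In WT replicate 67 the 10 enzymes took 397470 reads, or 2.16% of the library, and in WT replicate 65 they took 4396 reads, or 0.0282%. In each of the other 8 libraries, 5 DUSP6 KO and 3 WT, they took 2 to 8 reads together. Of the 80 values that these 8 libraries gave for the 10 genes, 57 were 0, 21 lay between 1 and 3 reads and 2 were at 4 reads, the highest. By summed FPKM the enzymes reached 17183 in WT replicate 67 and 203.7 in WT replicate 65, against 0.0867 to 0.452 in the other 8 libraries. In bulk tissue, fewer cells of a type and less RNA per cell cannot be told apart.

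**Figure D1:**
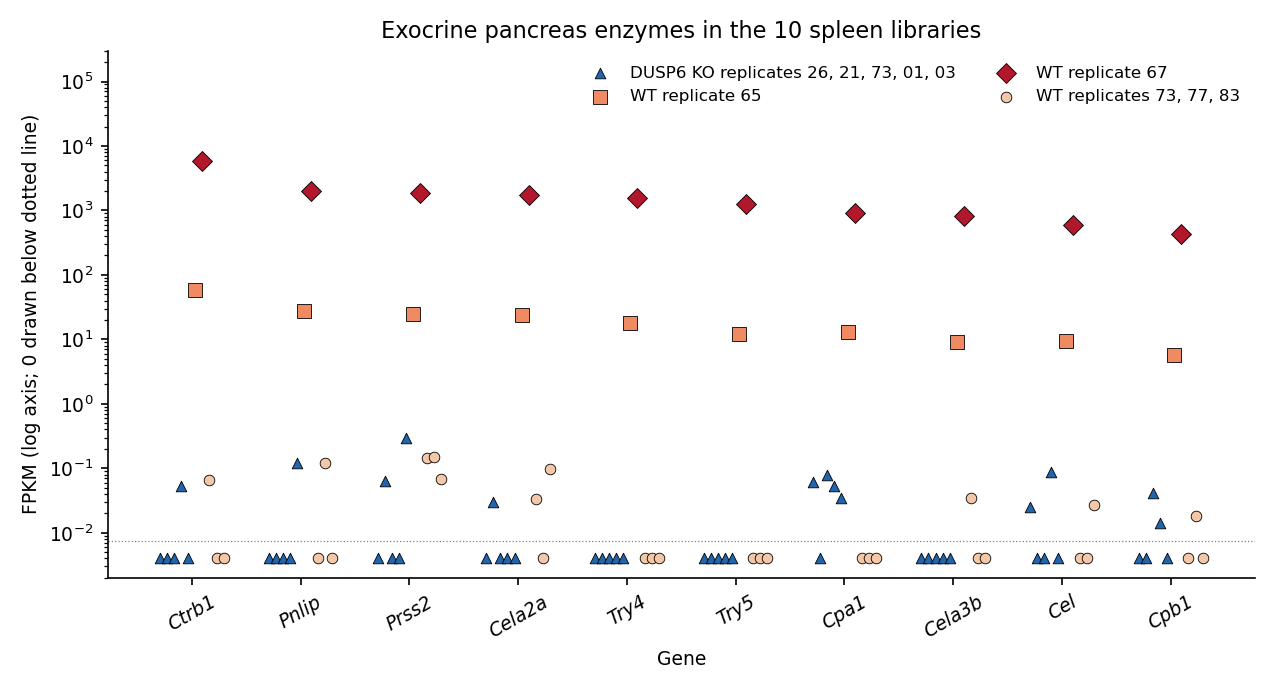
FPKM of each of the 10 enzymes (log axis) in every library, 1 symbol per library, with values of 0 drawn below the dotted line; no error is drawn since each symbol is 1 mouse. WT replicate 67 lies between 437 and 5928 FPKM and WT replicate 65 between 5.70 and 59.3 FPKM for all 10 genes, and every other library lies at or below 0.296 FPKM.

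Ctrb1, which encodes chymotrypsinogen B, was the most abundant of the proteases (ENSMUSG00000031957, chromosome 8, 111686519 to 111691010, minus strand). It was at 5928 FPKM in WT replicate 67 (99372 reads), where it ranked 6 among all genes of the library, and at 59.3 FPKM in WT replicate 65 (890 reads), where it ranked 753. It had 1 read in DUSP6 KO replicate 01 (0.0526 FPKM) and 1 read in WT replicate 73 (0.0660 FPKM), and 0 in the other 6 libraries. The highest value outside the 2 WT libraries was thus a single read.

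The anionic trypsinogen gene Prss2 (chromosome 6, 41521787 to 41525079, plus strand) and the trypsinogens Try4 and Try5 share a gene cluster. Prss2 was at 1877 FPKM in WT replicate 67 and 25.0 FPKM in WT replicate 65. Elsewhere it was at 0.0631 FPKM in DUSP6 KO replicate 21, 0.296 FPKM in DUSP6 KO replicate 03 and 0.142, 0.148 and 0.0685 FPKM in WT replicates 73, 77 and 83, and at 0 in DUSP6 KO replicates 26, 73 and 01. Prss2 was the enzyme with reads in the most of the other 8 libraries, at 4 reads or fewer in each. Try4 was at 1570 FPKM in WT replicate 67 (24008 reads) and 18.3 FPKM in WT replicate 65 (250 reads), and Try5 was at 1251 and 12.2 FPKM (21539 and 188 reads). Both Try4 and Try5 had 0 reads in all 8 other libraries, where 3 reads are the limit that a count of 0 allows, counting error only.

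The coding sequences of Try4 and Try5 were 97.4% identical, and those of Prss2 and Try4 91.6%. Reads of these trypsinogens could be assigned to the wrong copy, so the split between them is uncertain. Their sum is less so. The closest gene for each of the other 7 enzymes, among the acinar genes examined, was 45.98% to 67.6% identical.

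The pancreatic elastases are a further group of proteases. Cela2a was at 1756 FPKM in WT replicate 67 and 23.9 FPKM in WT replicate 65, with 1 read in DUSP6 KO replicate 21, 1 in WT replicate 73, 3 in WT replicate 83 and 0 in the other 5 libraries. Cela2a overlaps Casp9, on the other strand, and Ctrc. The highest FPKM of these neighbours in any library was 9.54, and they were at 7.56 FPKM or less in WT replicate 67. Cela3b was at 825 and 9.13 FPKM, with 1 read in WT replicate 73 and 0 reads in the other 7 libraries.

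The carboxypeptidases take amino acids off the end of a peptide. Cpa1, carboxypeptidase A1, was at 906 FPKM in WT replicate 67 (30280 reads) and 13.1 FPKM in WT replicate 65 (392 reads). It had 2 reads each in DUSP6 KO replicates 26, 73 and 01 and 1 read in DUSP6 KO replicate 03, with 0 in DUSP6 KO replicate 21 and in WT replicates 73, 77 and 83. Cpa1 was the 1 enzyme with reads in 4 of the DUSP6 KO libraries. Cpb1, carboxypeptidase B1, was the lowest of the 10 at 437 FPKM in WT replicate 67 and 5.70 FPKM in WT replicate 65. It had 2 reads in DUSP6 KO replicate 73, 1 in DUSP6 KO replicate 01, 1 in WT replicate 77 and 0 in the other 5 libraries.

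The fat-digesting enzymes followed the same pattern. Pnlip, the triglyceride lipase, was at 2037 FPKM in WT replicate 67 (57741 reads, rank 18 among all genes) and 27.7 FPKM in WT replicate 65 (703 reads). It had 3 reads in DUSP6 KO replicate 03, 3 in WT replicate 77 and 0 in the other 6 libraries. Cel, the bile salt-activated lipase that also splits cholesterol esters, was at 596 FPKM in WT replicate 67 (23923 reads) and 9.48 FPKM in WT replicate 65 (341 reads). Its other reads were 4 in DUSP6 KO replicate 01, 1 in DUSP6 KO replicate 26 and 1 in WT replicate 83. Proteases and lipases were therefore high in the same 2 libraries.

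Promoters of the enzymes are shown because the 10 genes were high together and because PTF1 sites are known for acinar genes. Of the 10 genes, 9 had an entry among the RefSeq promoters (GRCm38.p6, 250 bases before to 50 after the start), and Try5 had none. The E-box searched was CACCTG and the TC-box TTTCCC, both on either strand, and the motifs can share at most 1 letter at their ends. The E-box was in 6 of 9 promoters, against 20.2% of 32851 promoters of the same length, and the TC-box in 5 of 9, against 25.2%. Both, at any spacing, were in the promoters of Prss2, Cel and Cela2a, or 3 of 9, against 4.86%. The joint PTF1 site was not searched. TATAAA, searched on the strand of the gene, was in 4 of 9, against 8.32%. It was counted anywhere in the window, and in Cpb1 it lay after the start. A match is a description of the letters and no evidence of binding. The 3 promoters with both motifs, and that of the trypsinogen Try4, are printed 5′ to 3′ on the strand of the gene, with the E-box and TC-box letters in capitals. Prss2 is at chr6:41521526-41521825 (plus strand), Cel at chr2:28563354-28563653 (minus strand), Cela2a at chr4:141825956-141826255 (minus strand) and Try4 at chr6:41302022-41302321 (plus strand).
Prss2: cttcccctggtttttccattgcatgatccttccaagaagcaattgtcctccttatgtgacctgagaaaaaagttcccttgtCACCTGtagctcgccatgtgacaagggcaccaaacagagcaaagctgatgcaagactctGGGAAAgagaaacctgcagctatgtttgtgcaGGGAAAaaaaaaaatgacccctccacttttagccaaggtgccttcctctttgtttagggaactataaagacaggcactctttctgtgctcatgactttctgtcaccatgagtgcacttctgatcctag
Cel: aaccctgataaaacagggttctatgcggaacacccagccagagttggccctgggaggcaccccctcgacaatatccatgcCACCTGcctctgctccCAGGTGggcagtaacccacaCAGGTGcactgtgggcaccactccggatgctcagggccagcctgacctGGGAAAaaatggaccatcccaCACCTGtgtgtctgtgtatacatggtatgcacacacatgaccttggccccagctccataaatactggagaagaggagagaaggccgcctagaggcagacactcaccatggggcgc
Cela2a: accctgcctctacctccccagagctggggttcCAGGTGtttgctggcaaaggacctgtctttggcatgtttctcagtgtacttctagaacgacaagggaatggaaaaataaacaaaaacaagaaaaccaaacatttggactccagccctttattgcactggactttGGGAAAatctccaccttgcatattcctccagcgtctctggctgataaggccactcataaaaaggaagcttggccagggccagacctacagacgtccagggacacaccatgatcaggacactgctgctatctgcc
Try4: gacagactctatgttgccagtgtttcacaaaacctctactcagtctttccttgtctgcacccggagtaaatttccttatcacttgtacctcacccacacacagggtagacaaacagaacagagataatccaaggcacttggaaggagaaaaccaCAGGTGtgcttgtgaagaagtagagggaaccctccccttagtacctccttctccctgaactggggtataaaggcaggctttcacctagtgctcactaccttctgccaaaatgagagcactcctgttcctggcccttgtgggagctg
Cel held 4 E-boxes and 1 TC-box, and Prss2 held 1 E-box and 2 TC-boxes. Try4 held 1 E-box and no TC-box in this window.

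The make-up of the enzyme reads was close in the 2 libraries, but not equal. Chymotrypsinogen led in both, with 25.0% of the enzyme reads in WT replicate 67 (95% Clopper-Pearson interval 24.9% to 25.1%) and 20.2% in WT replicate 65 (19.1% to 21.5%), the largest gap of the 10 at 4.76 percentage points. Pnlip and Cela2a came next, at 14.5% each in WT replicate 67 and 16.0% each in WT replicate 65. Cel made up 6.02% (5.95% to 6.09%) in WT replicate 67 and 7.76% (6.98% to 8.59%) in WT replicate 65. The trypsinogen Try5 went the other way, with 5.42% (5.35% to 5.49%) and 4.28% (3.70% to 4.92%). For 6 of the 10 enzymes the intervals of the 2 libraries lay apart. These intervals cover counting error only, and with 1 library each the spread between such libraries cannot be judged. Where the enzyme reads of the 2 libraries came from was not tested. Without the trypsinogens the share of Ctrb1 was 30.8% in WT replicate 67 and 24.7% in WT replicate 65.

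**Figure D2:**
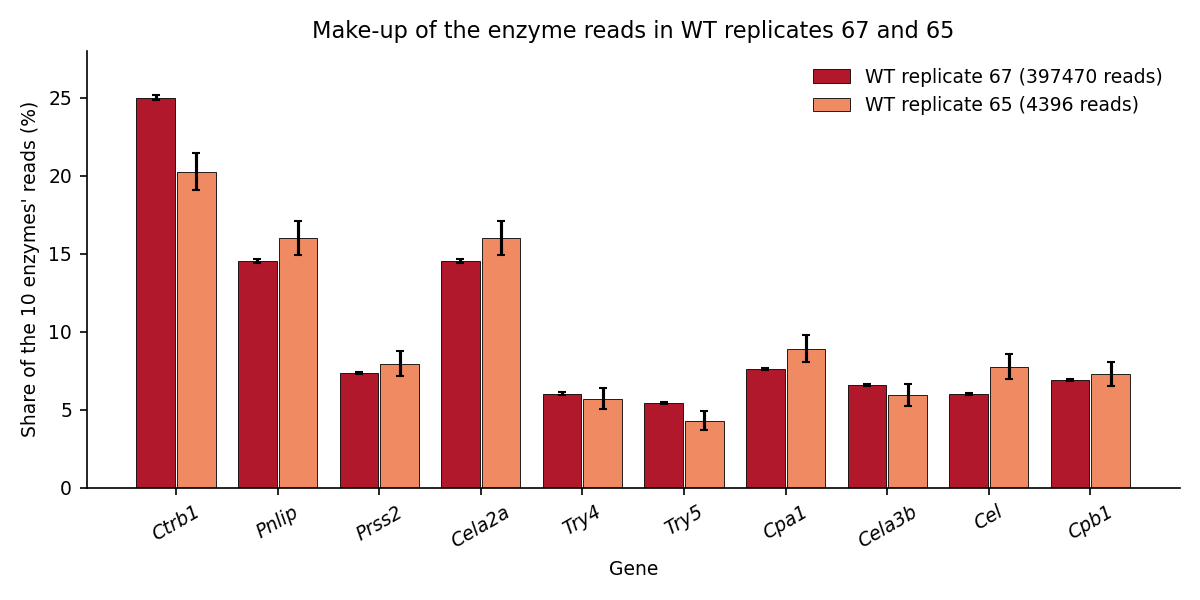
Share of each enzyme among the reads of the 10 enzymes (%), in WT replicate 67 and WT replicate 65, with 95% Clopper-Pearson intervals as bars. Ctrb1 takes 25.0% and 20.2%, Pnlip and Cela2a 14.5% and 16.0%, and the intervals of 6 of the 10 genes lie apart.

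By FPKM, which allows for gene length, the first 5 enzymes had the same order in the 2 libraries, namely Ctrb1, Pnlip, Prss2, Cela2a and Try4. The remaining 5 changed places with a neighbour, except Cpb1, which was last in both. Neighbours in this order were close for several genes, for example Prss2 and Cela2a at 1877 and 1756 FPKM in WT replicate 67. In WT replicate 67, compared with WT replicate 65, the FPKM of single enzymes was 62.8 times (Cel) to 103 times (Try5) as high. In the 8 other libraries together, the 41 enzyme reads included 10 of Prss2 (24.4%, interval 12.4% to 40.3%) and 2 of Ctrb1 (4.88%, interval 0.596% to 16.5%).

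The trypsinogen genes lie inside the T cell receptor beta locus on chromosome 6, and the spleen is rich in T cells, so neighbours were compared. Try4 starts 20.3 kb after the end of the variable segment Trbv30, and the diversity segment Trbd1 starts 8.12 kb after the end of Prss2. The constant segment Trbc1, 13.1 kb after Prss2, was at 72.8 FPKM in WT replicate 67, 61.0 FPKM in WT replicate 65 and 33.5 to 79.2 FPKM in the other 8 libraries. Trbc2 was at 130 and 120 FPKM in the 2 libraries and at 69.7 to 166 FPKM in the others. Trbd1, the nearest of these neighbours, was at 17.5 FPKM in WT replicate 67 and 68.2 FPKM in WT replicate 65. The other libraries lay at 11.4 to 60.3 FPKM, so WT replicate 65 was above their range. Trbd1 spans only positions 41533201 to 41533212, so a few reads can give such FPKM. For both constant segments the 2 WT libraries lay inside the range of the other 8, while Prss2, between them and Trbv30, ran from 0 to 1877 FPKM over the 10 libraries.

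**Figure D3:**
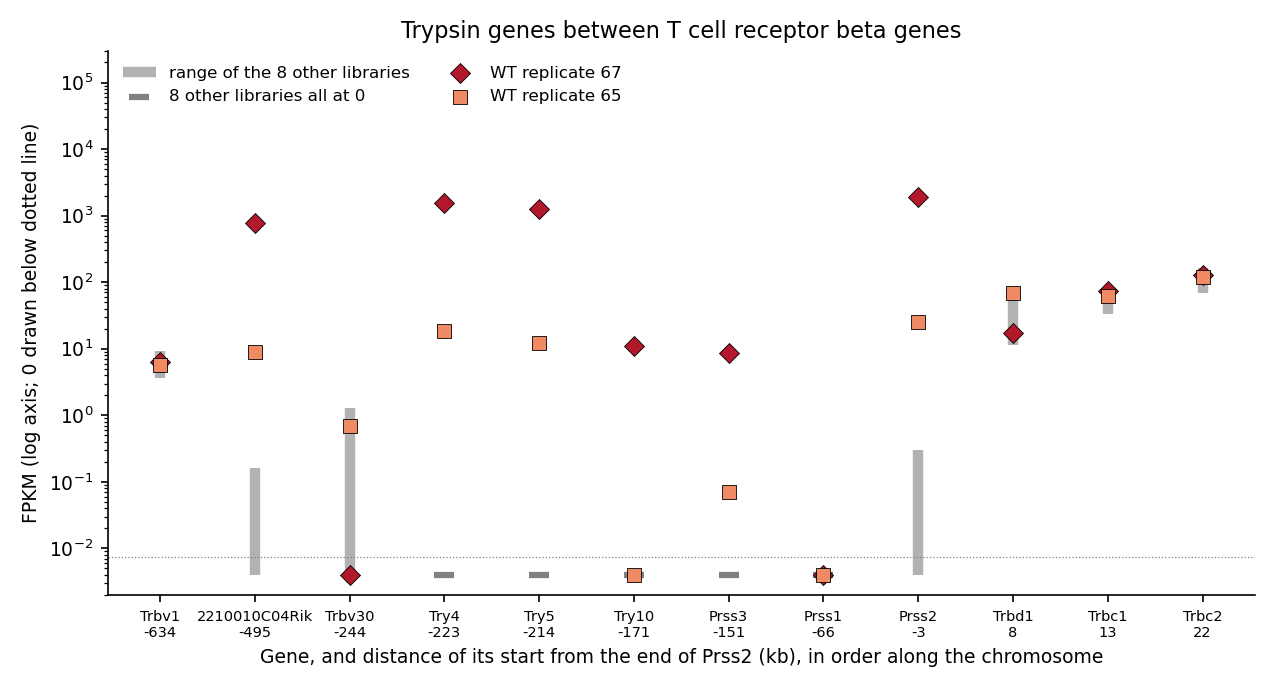
FPKM (log axis) of genes in order along the T cell receptor beta locus, with the distance of each start from the end of Prss2 in kb; diamonds are WT replicate 67, squares WT replicate 65 and grey bars the range of the 8 other libraries (a dash where all 8 are at 0), with 0 below the dotted line. Try4, Try5 and Prss2 stand at 1251 to 1877 FPKM in WT replicate 67, while Trbc1 and Trbc2 lie within the range of the other libraries.

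Other acinar genes, 35 in the table from lists of proteases, lipid, starch and RNA enzymes, granule and membrane proteins and transcription factors, were compared next. In WT replicate 67, 31 of the 35 had a higher FPKM than in any of the 8 other libraries, and in WT replicate 65 this was so for 22. Of 11 spleen marker genes it was so for 4 in WT replicate 67 and 0 in WT replicate 65. The share over all genes was not computed, so these counts are a description only. Together the 35 acinar genes took 1.15% of the reads in WT replicate 67 and 0.0177% in WT replicate 65. Among other proteases, 2210010C04Rik, a further trypsinogen, had 31869 reads in WT replicate 67, 324 in WT replicate 65 and 0 to 5 in the others. Ctrl, a chymotrypsin-like protease, had 18468 and 239 reads against 7 to 20. Cela1 had 57164 and 1062 reads, but the other 8 libraries also held 383 to 881 reads of this elastase, so it was present in all 10 spleens. By FPKM Cela1 in WT replicate 65 was close to the highest of those 8, DUSP6 KO replicate 73, at 26.9 against 26.1.

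Enzymes of other substrates were at or near 0 in the other 8 libraries. Clps, the colipase that Pnlip needs in the presence of bile salts, had 14810 reads in WT replicate 67, 172 in WT replicate 65 and 0 in the 8 others. Rnase1, the pancreatic ribonuclease, had 13716 and 159 reads against 0 to 6, and Pnliprp1, a lipase-related protein, 15588 and 136 against 0. The amylase gene Amy2b had 7828 and 27 reads against 0.

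Granule proteins differed in how far the other libraries held them. Sycn, the granule protein syncollin, had 8373 reads in WT replicate 67 and 58 in WT replicate 65, and Reg1, a secreted lectin, had 8091 and 50, with 0 reads of either in the 8 others. Zg16 and Klk1, a granule lectin and tissue kallikrein, had 7483 and 5862 reads in WT replicate 67 and 96 and 77 in WT replicate 65, while the other 8 libraries held 18 to 52 and 29 to 80. For Klk1 WT replicate 65 was thus inside the range of the others by reads. By FPKM, which allows for depth, it was just above that range, at 4.18 against 1.62 to 3.98.

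Of the transcription factors, Ptf1a had 21 reads in WT replicate 67 and 0 in each of the other 9 libraries. Rbpjl, its partner in PTF1, had 146 reads in WT replicate 67, 11 in WT replicate 65 and 2 to 13 in the 8 others. Bhlha15 (MIST1), also a factor of plasma cells, had 227 and 86 reads against 103 to 226, so WT replicate 65 was the lowest of the 10. By FPKM WT replicate 67 lay inside the range of the 8 others, at 3.40 against 1.45 to 3.75. Nr5a2 had 17 and 6 reads against 0 to 3, and Gata4 had 6 and 0 against 0 to 7. Of these 5 factors Nr5a2 was thus the 1 that was higher in WT replicate 65 than in all 8 others, on 6 reads. For Ptf1a in WT replicate 65, 3 reads of 15611652 are the limit that a count of 0 allows.

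The ratio of FPKM in WT replicate 67 to that in WT replicate 65 had a median of 81.4 for the 8 enzymes with more than 3 reads in WT replicate 65 and at most 3 in each of the 8 other libraries (69.2 for Cpa1 to 103 for Try5). For the 13 other acinar genes under the same rule the median ratio was 98.4, from 2.54 for the transcription factor Nr5a2 to 277 for the amylase Amy2a5. Sycn had a ratio of 129 and Reg1 of 145. Some of the other acinar genes had few reads in WT replicate 65.

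The 15 genes whose pattern was most like that of the enzymes included Clps, Amy2a3, Sycn, Pnliprp1, Amy2a1, Reg1, 2210010C04Rik, Klk1b5, Tff2, Ctrl, Rnase1, Pnliprp2, Reg3d and Spink1. Likeness was the Pearson correlation of log2(FPKM + 0.1) with the mean of the 10 enzymes over the 10 libraries, given as a description, and it ran from 0.982 (Spink1) to 0.9998 (Clps) among 21286 genes ranked. It rests on the 2 WT libraries, since without WT replicate 65 only 2 of the 15 genes were again among the top 15, and without WT replicate 67 only 3. Of these 15, 10 were on the acinar lists, Tff2 was on the stomach list and 4 were on no list, namely the amylases Amy2a1 and Amy2a3, the kallikrein Klk1b5 and the Reg family gene Reg3d. Tff2, a trefoil peptide best known from gastric mucus, had 1249 reads in WT replicate 67, 12 in WT replicate 65 and 0 in the 8 others.

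Markers of further tissues were compared by their summed FPKM. Islet genes, from the endocrine pancreas, were at or near 0 in every library: of 13 genes, Ins1, Ins2, Sst, Ppy, Pyy and Iapp had 0 reads in all 10 libraries, and Gcg had 0 reads in WT replicate 67 and 0 to 7 elsewhere. Duct and epithelial genes summed to 11.9 FPKM in WT replicate 67, 5.07 FPKM in WT replicate 65 and 3.72 to 5.88 FPKM in the others. In WT replicate 67, 5 of the 10 genes had a higher FPKM than in any of the 8 others, beside 4 of the 11 spleen genes. Among those 5 were Krt8, Krt18 and Muc1, simple-epithelium keratins and a mucin, at 2.01, 1.97 and 2.32 FPKM. Krt19, Sox9 and Epcam lay inside the range of the others at 0.367, 0.266 and 3.72 FPKM, and Krt7 was at its lowest of all libraries, 0.0594 FPKM, in WT replicate 67. Cftr, the chloride channel of duct cells, had 0 FPKM in WT replicate 67 and near 0 FPKM elsewhere. The stomach list reached 112 FPKM in WT replicate 67, nearly all of it Tff2, while Gkn1, Gkn2 and Tff1 were at 0 in all 10 libraries. Intestine genes were at 0.0426 to 0.535 FPKM in all libraries. Liver genes were at 0.0319 to 1.31 FPKM in all libraries, with the defining gene Alb at 0.119 FPKM or less. The spleen list, led by the B cell gene Cd79a, stood at 1221 FPKM in WT replicate 67 and 962.5 FPKM in WT replicate 65. The other libraries stood at 694 to 1046 FPKM, so both libraries rich in enzyme reads were spleen by these markers.

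Fat markers moved with the enzymes in 1 library and without them in another. Adipocyte genes summed to 59.8 FPKM in WT replicate 67 and 47.2 FPKM in DUSP6 KO replicate 73, against 0.755 to 1.70 FPKM in the other 8 libraries, including WT replicate 65 at 0.807. Cfd, the adipocyte factor adipsin, had 705 reads in WT replicate 67 and 315 in DUSP6 KO replicate 73, and Car3, a carbonic anhydrase of fat and muscle, had 567 and 555. All 10 enzymes together had 4 reads in DUSP6 KO replicate 73. Mesothelial genes, which mark the surface of the spleen, were highest in WT replicate 77 at 13.3 FPKM and stood at 2.71 FPKM in WT replicate 67. The part of fat, duct or surface tissue in the enzyme levels was not tested.

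**Figure D4:**
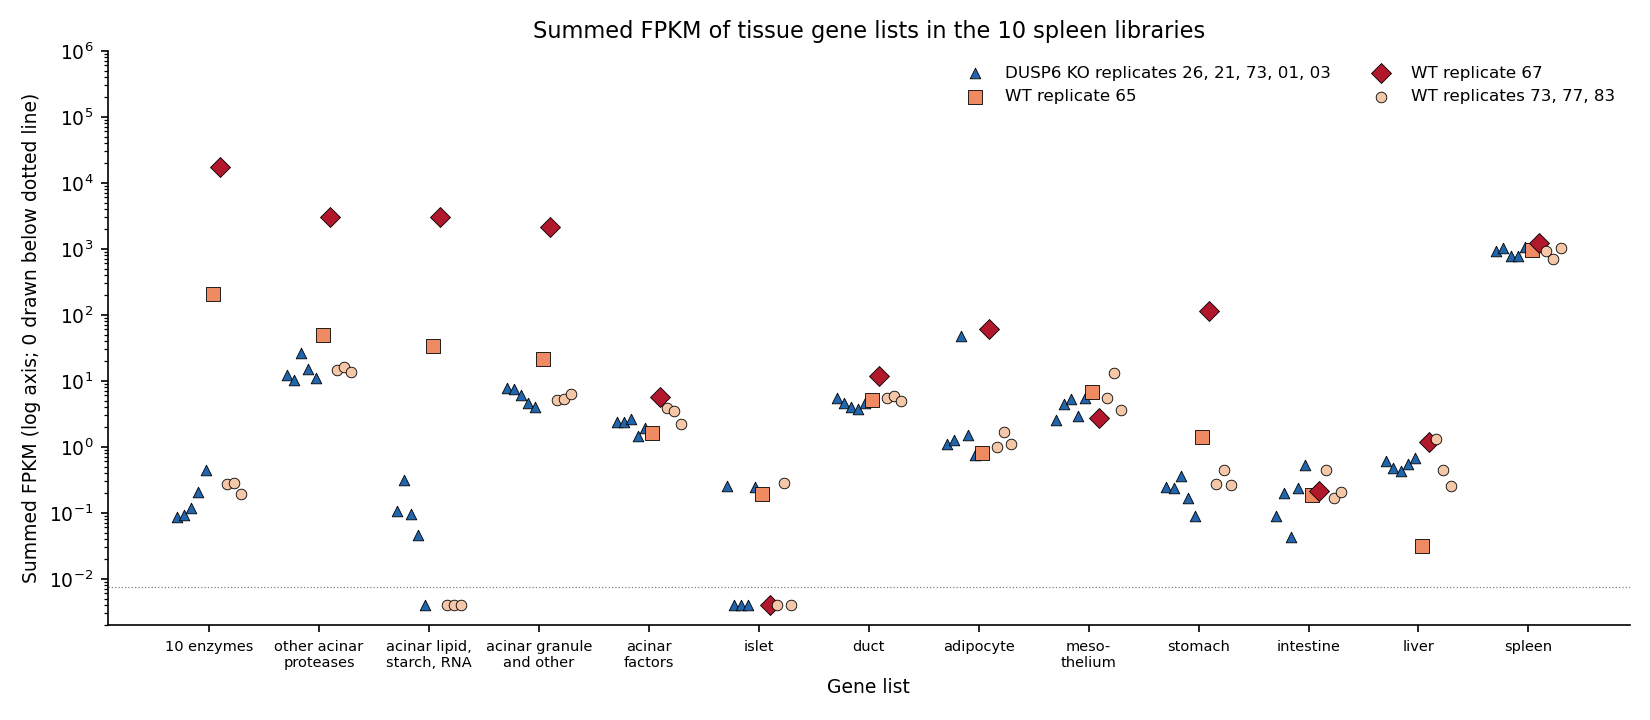
Summed FPKM (log axis) of each gene list in every library, 1 symbol per library, with 0 drawn below the dotted line. WT replicate 67 leads all acinar enzyme and granule lists, DUSP6 KO replicate 73 joins it in the adipocyte list at 47.2 FPKM, and the spleen list spans 694 to 1221 FPKM.

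The study compared DUSP6 KO with WT spleens to find genes that respond to loss of this phosphatase, and the enzymes enter that comparison through the WT group. For Ctrb1 the DUSP6 KO libraries averaged 0.0105 ± 0.0235 FPKM (SD, n = 5), whereas the WT libraries averaged 1198 ± 2645 FPKM (SD, n = 5) around a median of 0.0660 FPKM. The WT standard deviation exceeded the mean for all 10 enzymes, and in WT replicates 73, 77 and 83 none of them passed 0.148 FPKM. All 10 passed the filter of a mean of 0.1 FPKM, and they passed it through WT replicates 67 and 65 alone.

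In the limma fit over all 21296 genes tested, 0 of the 10 enzymes had an adjusted p of 0.05 or less, and 0.0704% of all genes did (8 higher and 7 lower in DUSP6 KO). Log2 fold changes, DUSP6 KO against WT on the log2(FPKM + 0.1) scale, ran from −5.04 (standard error 2.78) for Ctrb1 to −3.50 (standard error 2.09) for Cpb1. Their median was −4.20, against −0.0046 over all genes tested. At an unadjusted p under 0.05 limma called 0 of the 10, limma voom on the recovered reads called 0 (0.0657% of all genes at an adjusted p of 0.05), and in limma 559 and 646 of all genes were higher and lower. Since the values in these libraries chose the enzymes, nothing is read from these counts. For comparison Dusp6 fell by 5.19 on the log2 scale with a limma adjusted p of 1.3e-07, a change of much the same size with far less spread.

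A large spread within genotypes follows from choosing genes that were high in single libraries, and it is given here as a description. The residual standard deviation within genotypes was 3.79 to 5.05 on the log2 scale for the 10 enzymes, against a median of 0.355 over all genes tested, and the enzymes held ranks between 1 (Ctrb1) and 17 (Cpb1) of 21296. Other acinar genes stood among them, with Clps at rank 5, Rnase1 at 9, Sycn at 11 and Reg1 at 16. Because the fold change depends on the pseudocount where a group is at 0, a lower bound was computed for the 3 genes with 0 reads in all DUSP6 KO libraries, with 3 reads per library as the floor. By mean FPKM Try4 was at least 1516-fold lower in DUSP6 KO, Try5 at least 1358-fold and Cela3b at least 1654-fold. With these genes at their bound, the median log2 fold change of the 10 was −4.58. That median mixes ratios of mean FPKM with differences of mean log2 values, so it cannot be set against the median of the fit. These bounds rest on single libraries: without WT replicate 67 they were 21.8-fold, 16.4-fold and 22.7-fold, carried by WT replicate 65. In WT replicates 73, 77 and 83 Try4 and Try5 also had 0 reads. Cela3b had 1 read in WT replicate 73 and 0 in WT replicates 77 and 83.

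Leaving out single libraries changed the size of the contrast. Without WT replicate 67 the median log2 fold change of the 10 enzymes was −1.81 (−2.36 to −1.25) and without WT replicate 65 it was −3.44 (−4.02 to −2.77), with 0 called in either case (0.08% and 0.0658% of all genes). Without both, all 10 enzymes fell under the filter and had no value. Of the 35 other acinar genes 29 passed the filter, most of them through the same 2 libraries, so their direction was set by that. In limma 0 were called, also at an unadjusted p under 0.05, and their median was −2.04, with 29 of 29 lower beside 10851 of 21296 over all genes tested. Without both WT libraries 7 of them were tested, 4 lower and 3 higher, with a median of −0.107. Genes called over the whole table numbered 15 with all libraries, 17 without WT replicate 67 and 16 without both (0.0755%).

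**Figure D5:**
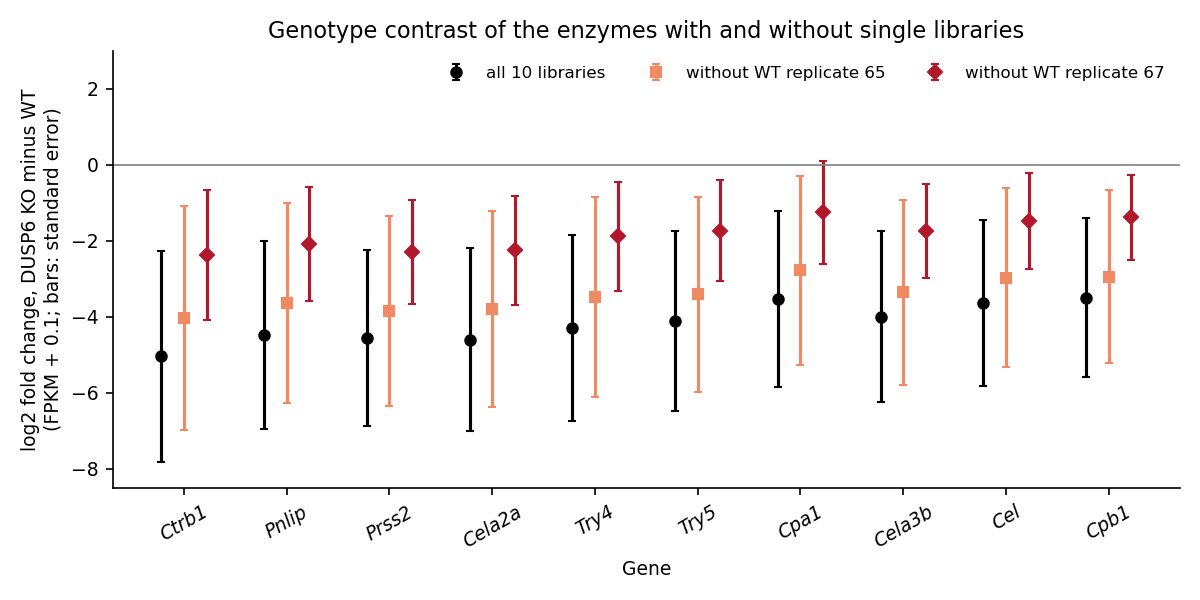
Log2 fold change of each enzyme, DUSP6 KO minus WT on log2(FPKM + 0.1), with its standard error as bars, for all 10 libraries, without WT replicate 65 and without WT replicate 67. The values lie between −5.04 and −3.50 with all libraries and between −2.36 and −1.25 without WT replicate 67, and no enzyme was called in any of them.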

How the data were processed

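Spleen RNA of 5 DUSP6 KO and 5 WT mice was sequenced by a service provider after poly-A selection, 1 library per mouse. The authors aligned reads with Hisat2 v2.0.5, counted them per gene with featureCounts v1.5.0-p3, and deposited FPKM values computed from the count and the gene length. The deposited table holds no comparison columns and each of its 10 value columns matched 1 sample, so 0 were unmapped. The study names no mouse genome build, and the build given in the labels is a human one. Gene positions equalled those of GENCODE mouse release 21 (GRCm38) for 53548 of 54532 genes, including 9 of the 10 enzymes (not Pnlip). Whether counting used the strand is not stated.

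Reads were recovered from FPKM and length, and 100% of values were whole within 0.01 read. FPKM were tested as log2(FPKM + 0.1) with limma 3.58.1 (lmFit, eBayes with trend, two-sided, Benjamini-Hochberg) over the genes whose mean reached 0.1 FPKM, in R 4.3.3. The DESeq2 test of the study needs counts and was not used. Alternatives changed the pseudocount, filter, scaling, model and libraries, and limma voom and leaving out both WT libraries were added after the data were seen. The fit was tested on simulated data. The named genes were the 10 enzymes, up to 4 genes of highest mean FPKM per list plus any gene called, the 15 most like genes and Dusp6. Further list genes in the text (among them Amy2b, Amy2a5, Nr5a2, Ptf1a, Cftr and the islet and stomach genes at 0) were picked after their values were seen. 1 listed gene is not reported here. The enzymes and lists were chosen with earlier results of these data known. All libraries were male (Xist up to 0.0206 FPKM, Ddx3y 14.4 FPKM or more), although the labels name both sexes. Replicates of 1 genotype differed by more than sampling noise (chi-square per degree of freedom 14.7 to 169). Intervals and limits cover counting error only.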

Additional observations from a re-analysis of the deposited data

Results flagged for a closer look

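Dixon's criterion at 95% was applied to 36 groups of 5 libraries. A further 8 groups were not examined because they had no spread or 3 reads at most. Chance gives about 1 in 20 for normally distributed values in groups not chosen for them. FPKM on a linear scale need not be normal, so this rate is no yardstick for the count. Of the 36 groups, 19 held a library far from the other 4. In WT replicate 67 this was so for all 10 enzymes, which their selection had fixed and which is a description only, at 5928 FPKM for Ctrb1, 1877 for Prss2, 1570 for Try4, 1251 for Try5, 906 for Cpa1, 437 for Cpb1, 2037 for Pnlip, 596 for Cel, 1756 for Cela2a and 825 for Cela3b. In the same library it was so for the summed FPKM of the other acinar proteases (3047), the acinar lipid, starch and RNA enzymes (2989), the acinar granule and membrane proteins (2169), duct and epithelium (11.9), adipocyte (59.8) and stomach (112). Among the DUSP6 KO libraries, replicate 73 stood apart for the adipocyte list at 47.2 FPKM and replicate 03 for Prss2 at 0.296 FPKM, which is 4 reads. The intestine list was at 0.444 FPKM in WT replicate 73, the highest of the WT libraries. These genes share libraries, so the 19 are not independent of each other. The criterion examines the highest and the lowest library of a group. For the enzymes WT replicate 65 came behind WT replicate 67, so it was not examined for them. It was the lowest WT library for the liver, adipocyte and acinar transcription factor lists and was not flagged there.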

How the results depend on the processing

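Over 18 alternatives all 10 enzymes stayed lower in DUSP6 KO and none was called, with medians of the log2 fold change from −5.64 (pseudocount 0.01) to −1.81 (without WT replicate 67). Each of these alternatives kept WT replicate 67 or 65, whose values chose the enzymes, so the direction was set in advance. Without both, the enzymes fell under the filter and gave no value. Without each library in turn the medians ran from −5.25 to −1.81. The other acinar genes stayed at 0 called over 19 alternatives, with medians from −2.78 (limma voom) to −0.107 (without both WT libraries). Over all genes tested, 15 were called, against 8 with no filter on low values and 34 without DUSP6 KO replicate 21 (21 higher and 13 lower). The share of Ctrb1 moved to 30.8% in WT replicate 67 and 24.7% in WT replicate 65 without the trypsinogens. With scaling by TMM factors the enzymes summed to 16994 FPKM in WT replicate 67 and 199.7 in WT replicate 65, against 17183 and 203.7. Of the 15 most like genes, 0 were shared with a Spearman correlation, 13 with a pseudocount of 1, 2 to 15 when each library was left out in turn and 0 without both WT libraries, and the cause was not tested for the Spearman ranking. The planned count models, edgeR and DESeq2, were not run, because the deposited unit is FPKM, and limma voom took their place. No paired analysis was possible because the genotypes share only the mouse number 73, which marks different mice. Depth limits the 8 libraries with 2 to 8 enzyme reads, where single reads decide each value.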

Other observations

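Beyond the lists, 45 genes had at least 100 reads in WT replicate 67 and at least 10 times the depth-scaled reads of any of the 8 libraries other than WT replicates 65 and 67, counting a floor of 3 reads. They held 3.39% of its reads. Of these, 10 were the enzymes, 25 were other listed acinar genes, 1 was Tff2 and 9 were on no list: 1810028F09Rik, Amy2a1, Amy2a3, Amy2a4, Dmbt1, Hsd17b13, Klk1b5, Reg3d and Tmed6. Among them were 3 amylase copies, whose reads may be split between near-identical genes, and Dmbt1, a secreted mucosal glycoprotein. Names chosen after seeing their values also include Aqp12, an acinar water channel with 124 reads, and Cckar, the cholecystokinin receptor with 182 reads in WT replicate 67.

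By the same measure, against the other 7 of those 8 libraries, 4 genes stood out in DUSP6 KO replicate 73, and 0 of them were enzymes: Car3, Cfd, Cyp2e1 and the immunoglobulin segment Ighv1-62-2. Ttr, the transport protein transthyretin, had 18 reads in WT replicate 67 and 0 in the other 9 libraries.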
